A study of Homo sapiens with 3 samples.

Results

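The GATA2 locus was described as the called regions of 2 histone marks that overlap chr3 from 128.10 to 128.40 Mb in hg19. This window of 300 kb was defined by position and not by any measured value, though it was chosen with earlier results of these data known. GATA2 lies at 128.198 to 128.212 Mb on the minus strand, so its upstream (5′) side is towards higher coordinates. The window held 62 of the 271889 regions called outside the mitochondrial sequence: 10 of 71077 H3K27ac regions and 52 of 200812 H3K4me1 regions. The cells were LNCaP, an androgen-responsive line grown from a lymph node metastasis of a human prostate carcinoma. The labels name no treatment, genotype or hormone condition, and 1 library per mark was deposited with its list, so nothing measures the spread between cultures and no p-value was computed. Normal prostate epithelial cells and the PC3 line, which the design text mentions, and the LNCaP input library were not analysed here. The lists give each region's limits and an unnamed score but no read counts, so the depth is unknown and a place without a region cannot be read as a place without the mark. The lists carry no expression values, so the identity of the cells was not checked against markers.

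GATA2 is a zinc finger transcription factor that binds the GATA motif. It is best known for keeping blood stem and progenitor cells, where the gene is controlled by an enhancer within one of its introns and by an enhancer far upstream, which certain leukaemia rearrangements carry to another gene. In the prostate, GATA2 works in luminal cells beside the androgen receptor and FOXA1, opens chromatin for the receptor and raises its expression. H3K27ac marks active promoters and enhancers. H3K4me1 marks enhancers whether active or only primed, and often flanks active promoters.

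The gene has several first exons, and the RefSeq table (GRCh38.p14) lists 2 promoter windows of 300 bases for GATA2, from 250 bases before to 50 after each start, and 1 for GATA2-AS1, an antisense RNA transcribed from the opposite strand. The starts of GATA2 are 4671 bp apart in that build, and GATA2-AS1 starts 673 bp from the proximal one, pointing away from it. The sequences are shown because the widest H3K27ac region within the gene lay in its 5′ part. Capitals mark GGGCGG (the GC box bound by Sp1) and CANNTG (the E box) on either strand.
GATA2 distal start: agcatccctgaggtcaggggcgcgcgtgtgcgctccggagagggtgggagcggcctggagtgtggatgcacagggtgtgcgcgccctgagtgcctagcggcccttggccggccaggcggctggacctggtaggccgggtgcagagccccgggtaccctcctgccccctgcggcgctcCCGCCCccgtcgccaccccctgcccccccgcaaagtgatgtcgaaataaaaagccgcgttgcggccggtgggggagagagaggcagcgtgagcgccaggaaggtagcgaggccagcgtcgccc
GATA2 proximal start: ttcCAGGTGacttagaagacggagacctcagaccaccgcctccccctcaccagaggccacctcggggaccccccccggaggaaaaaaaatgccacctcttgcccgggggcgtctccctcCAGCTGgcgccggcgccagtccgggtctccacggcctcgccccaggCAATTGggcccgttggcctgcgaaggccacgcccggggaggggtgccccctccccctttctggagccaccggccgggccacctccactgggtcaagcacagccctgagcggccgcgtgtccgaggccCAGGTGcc
GATA2-AS1: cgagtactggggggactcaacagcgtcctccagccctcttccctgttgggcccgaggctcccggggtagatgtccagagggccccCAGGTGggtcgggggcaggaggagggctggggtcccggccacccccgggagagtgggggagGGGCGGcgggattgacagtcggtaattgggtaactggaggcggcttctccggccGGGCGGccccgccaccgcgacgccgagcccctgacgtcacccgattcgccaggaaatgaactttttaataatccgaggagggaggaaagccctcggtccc
All 3 windows were rich in G and C, at 72.3% for the distal start, 71.3% for the proximal start and 68.3% for GATA2-AS1, against a median of 58.7% over the 35116 promoter windows of the table. They held 29, 22 and 24 CpG dinucleotides, against a median of 14. Set against the number expected from their C and G content, the ratios were 0.744, 0.59 and 0.694, against a median of 0.579. These ratios were higher than in 61.8%, 50.6% and 57.5% of all windows, so the proximal start was near the middle. The distal window had 1 GC box, beginning 73 bases before the start, and the GATA2-AS1 window had 2, beginning 104 and 50 bases before it. GC boxes were present in 45.0% of all windows. The proximal window had no GC box but 4 E boxes, GATA2-AS1 had 1 and the distal window none, while 68.7% of all windows had at least 1. None of the windows held the letters AGATAA (present in 10.3% of all windows), TGATAA (7.53%), AGATAG (6.63%) or TGATAG (5.80%), which are GATA motifs, TGTTTAC (3.42%) or TGTTTGC (3.89%), which are forkhead motifs, AGAACA (14.8%), 1 arm of the androgen receptor's site, CACGTG (an E box within CANNTG, 7.26%) or TATAAA (11.5%), all read on both strands. This describes the letters of these windows only. Their hg19 positions were not used here, so no window was placed within a called region to the base.

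Both marks covered nearly all of the 5′ part of GATA2, and the H3K27ac regions there ended within a few kilobases on either side. The widest H3K27ac region of the gene, chr3:128204851-128211700, was 6.85 kb wide and wider than 98.2% of all H3K27ac regions. It ended 300 bp short of the upstream end of the gene, which is known here only to the nearest 1 kb, so whether it reached the distal start cannot be told apart from that rounding. Its width exceeded the distance between both GATA2 starts in GRCh38, which does not place either start within it. The region carried 0.001, the lowest score in the H3K27ac list. That value was shared by 14.3% of the list and by 5 of the 10 regions in the window. The scores were given by the authors without a name, and low scores went with wide regions. A small H3K27ac region of 0.55 kb, chr3:128203751-128204300, lay 550 bp further into the gene, at the narrowest width in the list and with the higher score of 0.024. The third, chr3:128215951-128217200, was 1.25 kb wide and lay 3.95 kb upstream of the gene, with a score of 0.014. Joined, these 3 regions covered 8.65 kb over a span of 13.4 kb and ranked 3322 of 37027 joined H3K27ac clusters by covered length, which 91.0% of clusters did not reach.

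H3K4me1 formed a longer block around these regions. Successive H3K4me1 regions at chr3:128202251-128206400 (4.15 kb), chr3:128206601-128213500 (6.90 kb) and chr3:128213901-128218450 (4.55 kb) were separated by at most 500 bp. Together they spanned 16.2 kb, from 9.75 kb inside the gene to 6.45 kb upstream of it. Of 169242 such H3K4me1 blocks, joined in the same way, 386 covered more length. All 3 regions had the score 0.003, and the 3 H3K27ac regions, 2 in the gene and 1 upstream of it, lay within the block, filling 53.4% of its span. H3K4me1 therefore reached further than H3K27ac on both sides. The widest H3K27ac region was covered by H3K4me1 over 97.1% of its length, and the part left uncovered was a single break of 200 bp, chr3:128206401-128206600.

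**Figure D1:**
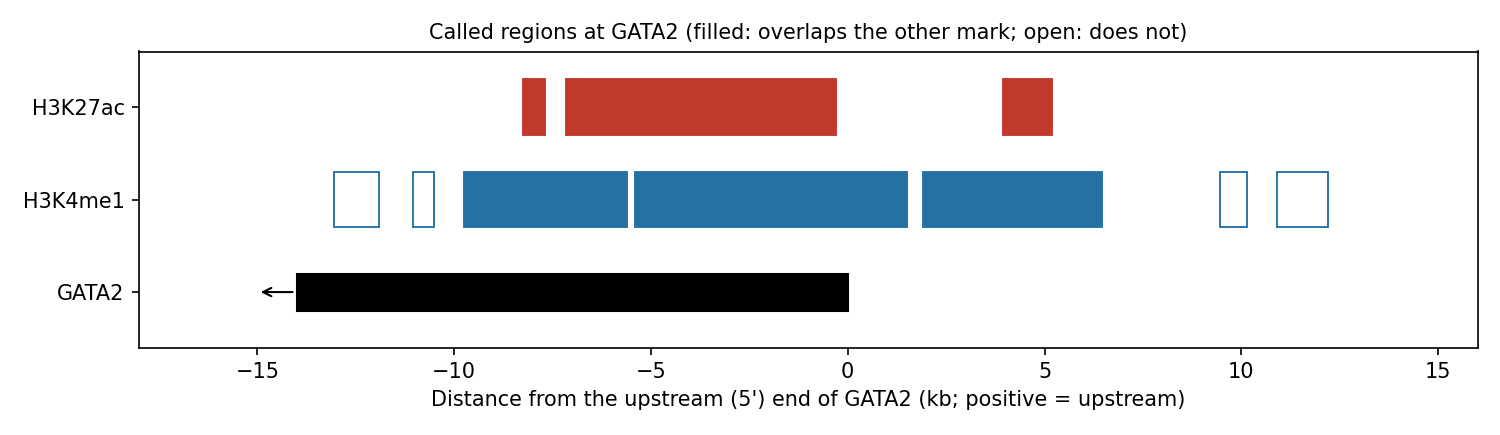
Called regions at GATA2, by distance in kb from the upstream end of the gene (positive values are upstream); each box is 1 region, filled where it overlaps the other mark and open where it does not, and the arrow gives the direction of transcription. The 3 filled H3K27ac boxes lie within the span of 16.2 kb formed by 3 H3K4me1 regions.

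Within the gene the marks were uneven. H3K27ac covered 52.9% of the 14 kb span and H3K4me1 80.4%. In the 5′ part of 7 kb, H3K27ac covered 95.7% and H3K4me1 97.1%. In the 3′ part of 7 kb, H3K27ac covered 10.0% and H3K4me1 63.6%. The last part of the gene before its 3′ end carried 2 H3K4me1 regions without H3K27ac, chr3:128198951-128200100 (1.15 kb, score 0.044) and chr3:128200951-128201500 (0.55 kb, score 0.081). Promoter and intronic enhancer signal within the gene cannot be told apart from these lists, as no mark found at promoters alone was analysed here.

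Both marks covered more of the window than of the genome, and H3K4me1 the more so. H3K27ac covered 27.4 kb (9.12%) and H3K4me1 85.0 kb (28.3%), against 4.65% and 9.45% of the chromosome spans in the whole series. The window held 5.20 H3K4me1 regions per H3K27ac region, and the whole lists 2.83. Of the 10 H3K27ac regions, 9 overlapped H3K4me1 by at least 1 bp (90.0%, exact Clopper-Pearson 95% interval 55.5% to 99.75%), beside 83.1% in the whole list. Of the 52 H3K4me1 regions, 12 overlapped H3K27ac (23.1%, interval 12.53% to 36.84%), beside 34.5% in the whole list. The first interval includes the share of the whole list and so does the second, and both treat neighbouring regions as independent and cover counting error only. By length, 89.0% of the H3K27ac and 28.7% of the H3K4me1 in the window lay under the other mark, beside 71.5% and 35.1% in the series.

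**Figure D2:**
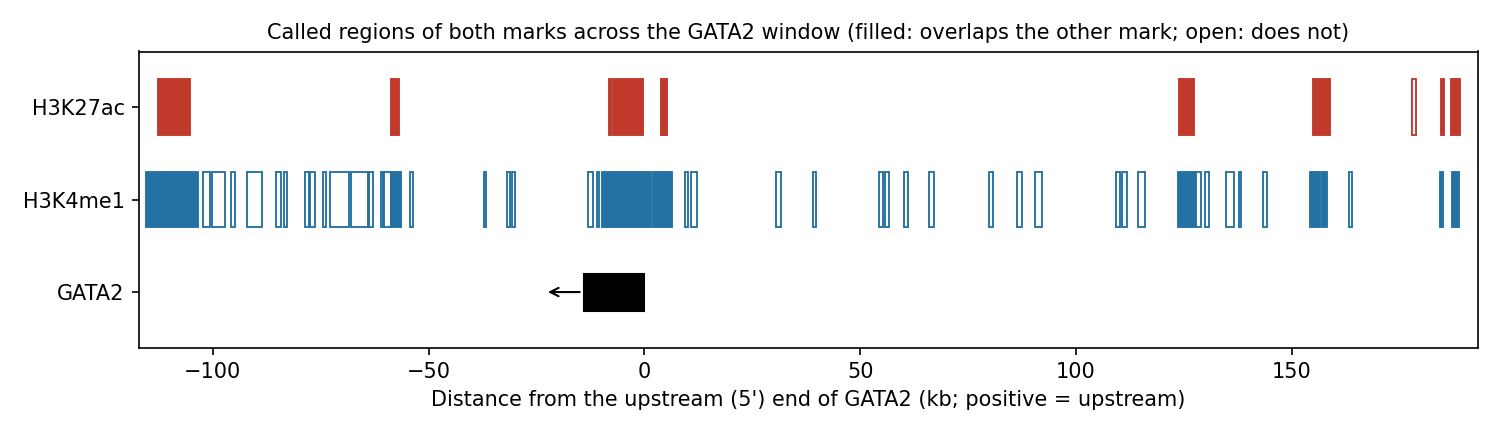
Called regions of both marks across the window of 300 kb, by distance in kb from the upstream end of GATA2 (positive values are upstream); filled boxes overlap the other mark and open boxes do not. Open H3K4me1 boxes, 40 of 52, lie between the 10 H3K27ac regions, most densely in the downstream stretch of 46.8 kb. Neither mark was called over 70.7% of the window.

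H3K27ac lay mainly at the gene, at the downstream edge of the window and beyond 118 kb upstream. In steps of 10 kb, H3K27ac was called in 9 of 30 and H3K4me1 in 25 of 30, while 4 held neither. The first step of the window had the most of both marks, at 6.65 kb for H3K27ac and 8.90 kb for H3K4me1. The step that holds most of the 5′ part of GATA2 followed for H3K27ac with 5.70 kb and held 8.20 kb of H3K4me1. In the 17 steps with H3K4me1 and no H3K27ac, H3K4me1 reached up to 8.30 kb. Steps with H3K27ac held a median of 4.15 kb of H3K4me1, and steps without it 1.60 kb. No values for such steps over the genome are given beside these, so they describe this window only and not a trait particular to it.

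**Figure D3:**
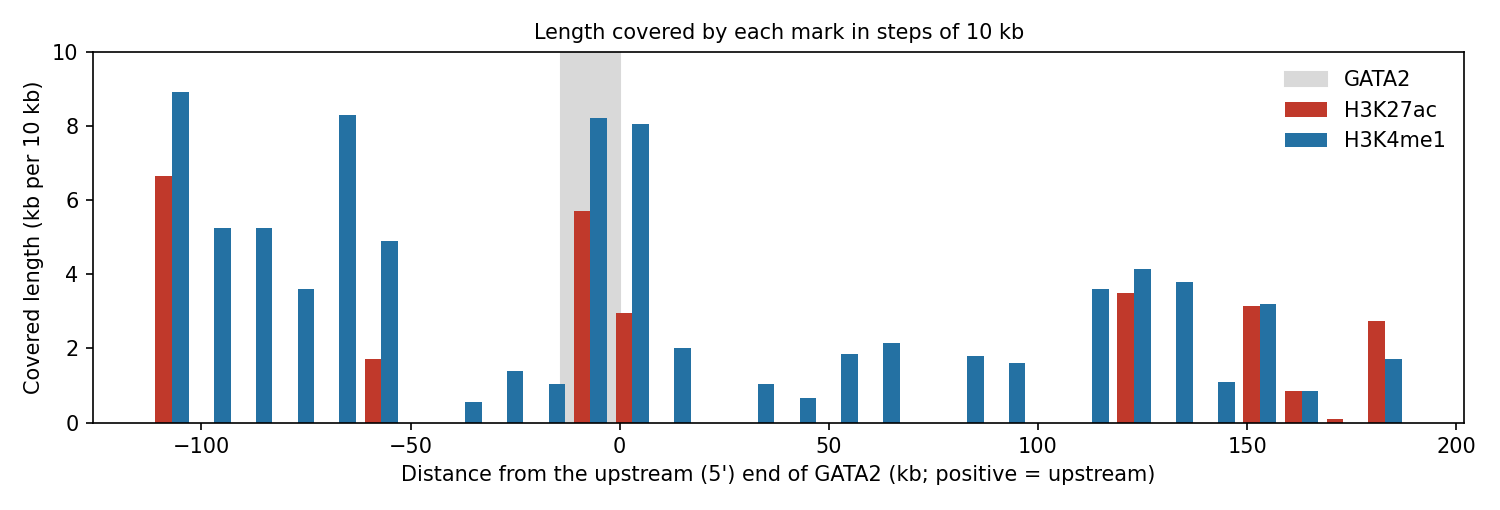
Length in kb covered by H3K27ac and H3K4me1 in each of 30 steps of 10 kb, by distance from the upstream end of GATA2; the grey band is the gene. The highest bars of both marks stand at the downstream edge of the window (6.65 and 8.90 kb), and the downstream flank has tall H3K4me1 bars with no H3K27ac beside them.

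On the downstream (3′) side of GATA2, H3K27ac was called in 2 places over 98 kb. The region at the window's edge, chr3:128099451-128106650, was 7.20 kb wide with the score 0.001, and lay wholly inside the widest H3K4me1 region of the window, chr3:128096651-128108650, of 12.0 kb. That H3K4me1 region was wider than 99.8% of its list. Both begin below 128.10 Mb and so belong in part to the neighbouring sequence. The other, chr3:128153401-128155100, was 1.70 kb wide with the score 0.007, lay wholly within an H3K4me1 region of 2.25 kb, and was 48.6 kb from the nearest H3K27ac region of the gene. In GRCh38, the protein-coding genes next in order on this side are DNAJB8, a chaperone gene known from testis, and then EEFSEC, the elongation factor for selenocysteine. No called region was assigned to either gene, because their hg19 positions were not used here.

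Between those 2 H3K27ac regions lay a dense run of H3K4me1 without H3K27ac. In the 46.8 kb that separated them, 57.2% of the sequence was in H3K4me1 regions. Over the 28864 stretches of 20 kb or more between successive H3K27ac regions of the series, the median share was 5.48% (quartiles 2.27% and 11.1%), and 33 stretches had a higher share than this one. The run consisted of 14 H3K4me1 regions from 128109751 to 128153300, which covered 24.7 kb. The last of the 14, chr3:128151801-128153300, ended only 100 bp from the next H3K27ac region. Their widths ran from 550 to 4400 bp with a median of 1100 bp, and 4 of them were at least 2 kb wide.

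Those 4 were all the H3K4me1 regions of 2 kb or more in the window that had no H3K27ac. The widest, chr3:128139151-128143550, was 4.40 kb wide with the score 0.003. The next, chr3:128144001-128147900, was 3.90 kb wide with the same score and followed after 450 bp. The others were chr3:128119951-128123500 (3.55 kb, score 0.003) and chr3:128111951-128114800 (2.85 kb, score 0.004). Most H3K4me1 regions of this width overlapped H3K27ac: over the whole list, 8540 of 37381 H3K4me1 regions of 2 kb or more (22.8%) and 562 of 8709 of 4 kb or more (6.45%) did not. In the window the corresponding counts were 4 of 10 and 1 of 5. The distance from the 4.40 kb region to the nearest H3K27ac region was 9850 bp.

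Between that run and the gene's own H3K27ac, H3K4me1 was sparser than in the run. The 48.6 kb between the H3K27ac region at chr3:128153401-128155100 and the gene's own held 6 H3K4me1 regions without H3K27ac, of 550 to 1150 bp. This stretch runs into the 3′ part of the gene, where chr3:128198951-128200100 and chr3:128200951-128201500 of these regions lie. In all, 12.8% of it was in H3K4me1 regions, still a higher share than in 79.6% of the stretches of 20 kb or more. The 16.9 kb at chr3:128182101-128198950, which reach into the 3′ end of the gene, held no region of either mark, and the nearest H3K4me1 region beyond it, chr3:128181301-128182100, was 0.80 kb wide with the score 0.034.

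Upstream of GATA2, H3K27ac was absent from the list over 119 kb. The stretch chr3:128217201-128335850, from the small region near the gene to the next H3K27ac region, was longer than 93.4% of all stretches between successive H3K27ac regions. It nevertheless held 14 H3K4me1 regions without H3K27ac, at widths of 650 to 1600 bp with a median of 1000 bp. H3K4me1 regions made up 13.7% of it, against a median of 2.63% (quartiles 1.16% and 5.69%) in the 5935 stretches of 100 kb or more, of which 300 had a higher share. Of the 14, 3 had scores up to 0.003: chr3:128277951-128279200 (1.25 kb), chr3:128302551-128304150 (1.60 kb) and chr3:128326351-128327950 (1.60 kb). The nearest to the gene was chr3:128221451-128222150 (0.70 kb), 9.45 kb from it. The longest stretch of the window without either mark, 18.4 kb at chr3:128224201-128242550, began shortly beyond.

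The last H3K4me1 regions before H3K27ac resumed formed a group of 3, chr3:128321201-128322100, chr3:128322701-128323800 and chr3:128326351-128327950, of 0.90, 1.10 and 1.60 kb. Their scores were 0.005, 0.004 and 0.003, and their midpoints lay 110, 111 and 115 kb upstream of the gene's end. The nearest H3K27ac region was 13750, 12050 and 7900 bp away. Which of the upstream regions, if any, is the distal enhancer known from blood cells was not assigned, since no hg19 annotation was used here.

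The same number of H3K4me1 regions without H3K27ac, 14, thus lay in 46.8 kb downstream and in 119 kb upstream. The downstream ones covered 24.7 kb and the upstream ones 14.7 kb. The median widths, 1100 and 1000 bp, were close, and the gap in length came with the 4 regions of 2 kb or more, of which the upstream stretch had none.

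**Figure D4:**
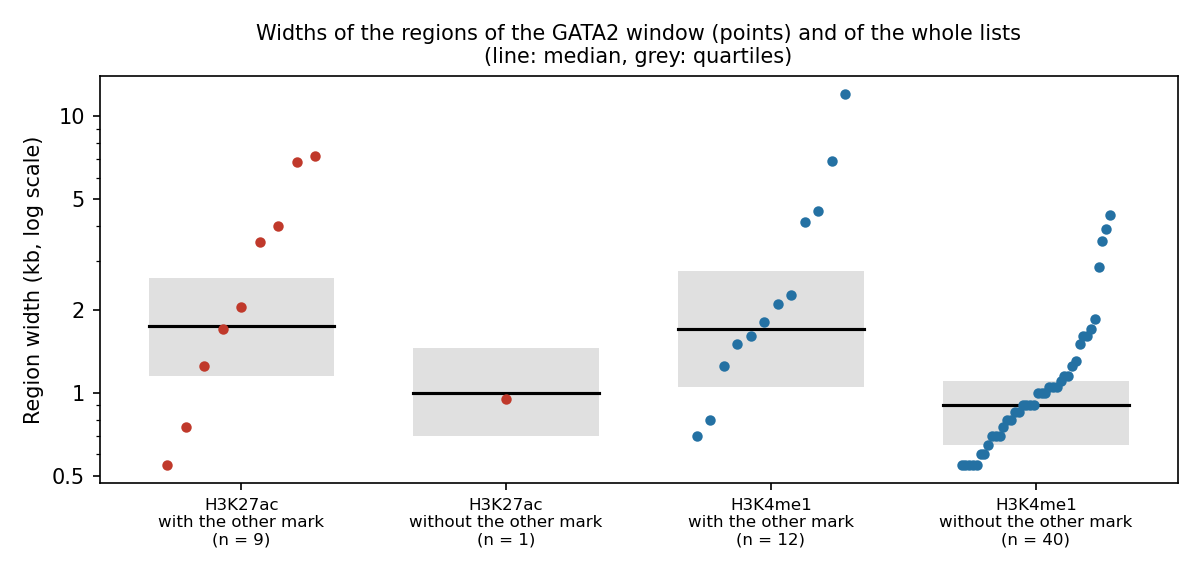
Widths in kb (log axis) of the regions of the GATA2 window, each point 1 region, by mark and by overlap with the other mark; lines and grey boxes are the median and quartiles of the whole lists. The 40 H3K4me1 regions without H3K27ac centre near the list's median of 900 bp, with 4 points of 2 kb or more above the rest.

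Further upstream, 5 H3K27ac regions lay between 124 kb and the edge of the window. The first, chr3:128335851-128339350, was 3.50 kb wide with the score 0.001 and was covered by 3 H3K4me1 regions over 95.7%, with breaks of 50 and 100 bp. The second, chr3:128366851-128370850, was 4 kb wide, again with the score 0.001. H3K4me1 covered 70.0% of it, leaving out 500 bp that include its midpoint and the last 700 bp at its upstream edge. The third, chr3:128389901-128390850, was the only H3K27ac region of the window without H3K4me1. It was 0.95 kb wide with the score 0.019 and lay 5450 bp from the nearest H3K4me1 region.

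The last 2 lay at the window's upstream edge. One, chr3:128396601-128397350, was 0.75 kb wide with the score 0.020 and 66.7% of it under H3K4me1. The other, chr3:128398851-128400900, was 2.05 kb wide with the score 0.001 and crossed the edge. Its H3K4me1 region of 1.60 kb lay in its middle, and 250 bp on one side and 200 bp on the other had H3K27ac alone. Over the whole upstream flank 75.9% of the H3K27ac length was under H3K4me1, against 97.3% in the gene and 100% on the downstream flank. In the whole series the share was 71.5%, and the downstream share rests on 2 regions. The next protein-coding gene in order on this side, in GRCh38, is RPN1, which encodes a subunit of the oligosaccharyltransferase that glycosylates proteins in the endoplasmic reticulum and is expressed in most cells. LINC01565 and other non-coding genes lie in between. How these regions fall within RPN1 was not assigned.

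H3K4me1 regions with both marks had the higher median width, as in the whole list. Overlap was counted from 1 bp, so a wider region had more room to meet the other mark. The median width was 1950 bp for the 12 H3K4me1 regions that overlapped H3K27ac and 950 bp for the 40 that did not, beside 1700 and 900 bp in the whole list. Scores up to 0.003 were carried by 9 of the 12 and by 7 of the 40, beside 57.2% and 12.3% in the whole list. Among H3K4me1 regions under 1 kb, 2 of 22 overlapped H3K27ac, beside 12.6% in the whole list. At 1 to 2 kb 4 of 20 did, beside 39.6%, and at 2 to 4 kb 2 of 5, beside 72.2%. Among those of 4 kb or more 4 of 5 did, beside 93.5%. Each class of the window was below the whole list, on small counts.

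Set beside windows of 300 kb over the whole genome, the GATA2 window stood higher for H3K4me1 than for H3K27ac. Of 9351 windows that held a region, 81.8% had less H3K27ac than its 27.4 kb, and 93.5% had less H3K4me1 than its 85.0 kb. The median window had 10.3 and 22.4 kb. Counted by regions, 66.8% of windows had fewer than 10 H3K27ac regions and 94.5% fewer than 52 H3K4me1 regions. H3K4me1 outside H3K27ac covered 60.6 kb, placing it at rank 402 of the 9351 windows and at rank 14 of the 651 on chromosome 3. For each kb under H3K4me1 the window had 0.322 kb under H3K27ac, and 69.3% of windows with H3K4me1 had a higher ratio. This ratio was 0.219 on the downstream flank, 0.658 in the gene and 0.326 on the upstream flank.

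**Figure D5:**
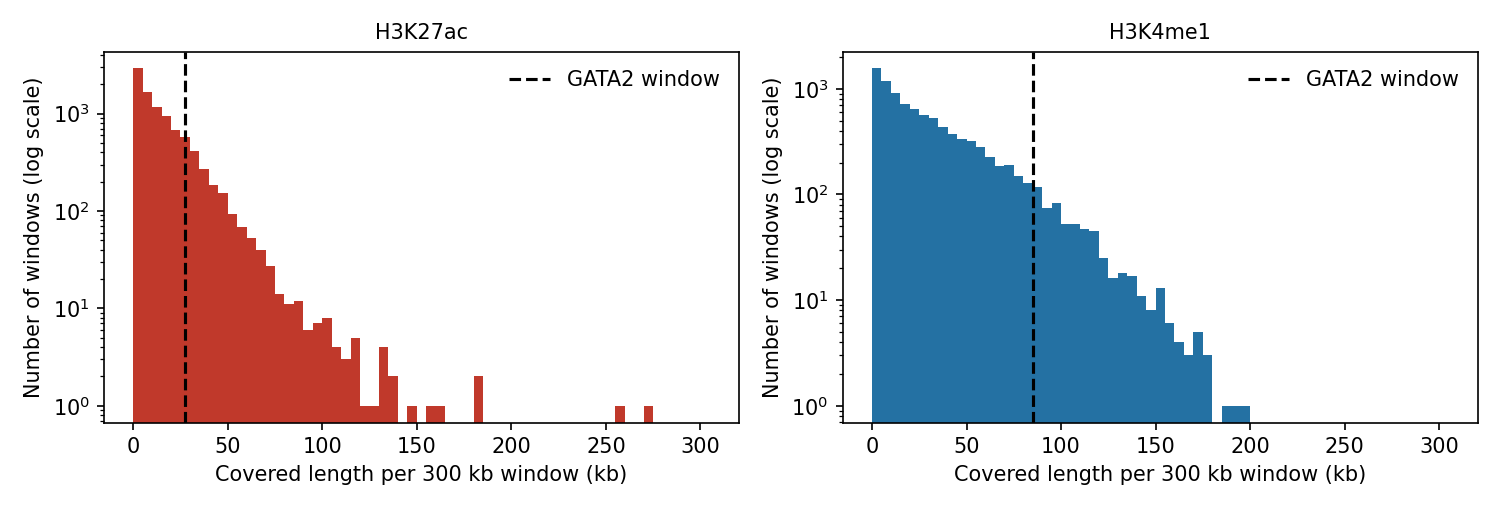
Number of windows of 300 kb (log axis) by the length in kb covered by H3K27ac (left) and H3K4me1 (right), with a dashed line at the GATA2 window. The line stands at 27.4 kb of H3K27ac, above 81.8% of windows, and at 85.0 kb of H3K4me1, above 93.5%.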

How the data were processed

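Per the submitters' processing notes, Bowtie 0.12.8 and hg19 were used. The region caller, its threshold and any use of the input, which set the number and width of regions, are not given here. The authors deposited 1 list per mark without a header: chromosome, start, end and an unnamed score, up to 0.048 for H3K27ac and 0.093 for H3K4me1, used here to rank and filter only.

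Starts were read as 0-based and are printed from 1, and the mitochondrial region of each list was left out. Members overlap the window by at least 1 bp, and lengths count the part inside it. Windows of 300 kb were tiled from the first base of each chromosome. Clusters join H3K27ac regions over gaps of up to 12.5 kb, and blocks join H3K4me1 regions over gaps of up to 500 bp. Intervals are exact Clopper-Pearson 95% intervals. Interval functions were tested on simulated lists. Promoters and gene order came from RefSeq GRCh38.p14, and no coordinate was converted between builds.

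By a written rule, the named regions were all H3K27ac regions if at most 30, all in the gene, the nearest on either side, the 5 widest and the lowest-scored of each mark, the 3 widest H3K4me1 regions without H3K27ac, the longest unmarked stretches and those crossing the edges. Other H3K4me1 regions named, the division of the gene, the blocks and the comparison of stretches were chosen after their values were seen. The members and lists were chosen with earlier results of these data known. Software was Python 3.11.15 with scipy 1.17.1, numpy 2.4.6, pandas 2.3.3 and, for figures, matplotlib 3.10.9.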

Additional observations from a re-analysis of the deposited data

How the results depend on the processing

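Of 58 alternative values, 51 stayed within 1.5 times the main value (for shares of regions, within its interval) and 7 did not. Of these values, 10 came from settings added after seeing the data. With scores at or below the list median, 6 H3K27ac (60%) and 24 H3K4me1 regions (46.2%) were left in the window. The same limit left 58.9% and 50.6% of the whole lists, so the lower counts follow from the limit itself. Of the H3K27ac regions left, 100% overlapped H3K4me1, since the region without it has a higher score. Merging regions within 1 kb left 31 H3K4me1 regions. Widening the window by 50 kb on each side gave 21 H3K27ac regions, 59.8 kb of H3K27ac and 136 kb of H3K4me1, so the H3K27ac total of the window depends on where it ends. The share of the gene under H3K27ac ran from 48.9% to 56.8% and under H3K4me1 from 68.2% to 93.2% over the settings run, which include moving both gene ends by 0.5 kb (added). The run of H3K4me1 downstream filled 53.4% of its stretch with H3K4me1 scores under 0.05 and 46.0% with scores up to the medians, and the upstream stretch without H3K27ac was 124 kb long with the latter (all added). No paired analysis was possible because there are no replicates. Depth is unknown, so regions missing from a list say little.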

Other observations

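The window borders a much richer stretch on its downstream side. The H3K27ac region at its downstream edge is the last of 12 that join into a cluster at chr3:128038451-128106650, which covers 34.4 kb and ranks 190 of 37027 clusters, against rank 3322 for the cluster at GATA2. H3K4me1 covered 95.9% of its H3K27ac length and 97.7% of that of the GATA2 cluster. The 300 kb next to the window on that side held 29 H3K27ac regions over 70.8 kb and 59 H3K4me1 regions over 136 kb. The 300 kb next to it on the upstream side held 11 H3K27ac regions over 24.4 kb and 39 H3K4me1 regions over 55.0 kb, and the one beyond 24 H3K27ac regions over 65.1 kb. Among the 7 windows from 127200001 to 129300000, the GATA2 window had the lowest ratio of H3K27ac to H3K4me1 length, 0.322, next to 0.326 in the window at 127200001 to 127500000, and the highest was 0.676.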
